A study of Mus musculus with 45 samples.

Results

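Hepatic stellate cells (HSCs) cultured on plastic for 4 days (d4) were compared with HSCs cultured for 1 day (d1). The libraries were chosen by their titles, which gave 3 libraries on d4 and 3 on d1, 6 of the 45 libraries of the series. The question was how far the change of the first day of culture was reversed, and how far it went on, over the following days.

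HSCs are the pericyte-like cells of the liver sinusoid that store vitamin A in lipid droplets. When the liver is injured, or when the cells are placed on stiff plastic in serum, they lose these droplets, begin to divide and turn into contractile myofibroblasts that secrete collagen. Isolation and plating also expose the cells to enzymes, detachment and new attachment.

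The series profiled polyA RNA of sorted HSCs in a culture experiment (IVT), a Western diet experiment (WD) and a carbon tetrachloride experiment (CCl4). The cells of all groups came from C57BL6/J mice, which the study's methods give as male C57BL/6JBomTac mice, and were sorted by their retinoid fluorescence, so that HSCs without retinoids at sorting are not in the cultures. IVT cells were kept in DMEM with serum, penicillin, streptomycin and amphotericin, and the age of the mice that gave them was not given in the sources used here. The IVT controls (d0) were kept for 2 hours in suspension after isolation, so d0 differs from d1 in attachment as well as in time. Cells were harvested on d1, d4, d8 and d12, with 3 libraries per time. In vivo, HSCs from mice on a Western diet with fructose for 24 weeks were compared with HSCs from chow-fed mice (4 libraries each), and HSCs from mice treated with CCl4 for 8 weeks (3 libraries) with those from vehicle-treated mice (4 libraries). The 3 libraries of an IVT time carry the letters A to C. The sources call them technical triplicates in one place and biological replicates in another, so the p-values below measure the spread between libraries, which may be that of wells from one preparation.

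The counts did not follow the gene identifiers listed beside them. The row listed at Actb, which encodes beta-actin, held between 0 and 2 reads in the IVT libraries, and the row listed at B2m held 0. Of 1624 rows listed at receptor, defensin and keratin-associated genes, 35.1% had a mean count below 1, against 33.6% of all 23999 rows. Each row was therefore treated as 1 unnamed gene and is referred to by its line number in the table. For this reason the HSC label could not be checked against marker genes, and no gene group, gene length or promoter is described. In such bulk libraries, fewer cells of a type and less RNA per cell cannot be told apart.

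The 6 libraries held between 6570021 and 7349096 counts, with a read on between 15589 and 15801 rows. A count of 3, taken as the floor, was worth between 0.408 and 0.457 CPM (counts scaled to the library size), and this floor covers counting error only. The d0 libraries were shallower and more variable, with a lowest total of 3556607 and a median standard deviation (SD) of 0.24 in log2CPM between replicates, against 0.082 on d1 and 0.066 on d4.

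The 13655 rows with enough counts to test were fitted together over all 15 IVT libraries with the quasi-likelihood test of edgeR. A row was called at a false discovery rate (FDR) of at most 0.05 and an average level above 2 in log2CPM over the groups compared. Under this rule, 3790 rows were higher on d4 than on d1 and 3892 were lower, which is 27.8% and 28.5% of the rows tested. Only 11206 rows were above the level threshold, and of these 33.8% were higher and 34.7% lower. The CPM of the d1 and d4 libraries did not overlap in 3773 of the higher and 3860 of the lower rows. Over all rows tested, called or not, d4 lay above d1 without overlap in 38.2% and below it in 37%.

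The change over these 3 days was smaller than that of the first day. Between d0 and d1, 34.7% of the rows tested were called higher and 32.7% lower, and the median size of the change over all rows was 0.83 in log2, against 0.48 between d1 and d4. In Euclidean distance on log2(CPM + 1), a d1 and a d4 library were between 98.5 and 102 apart, a d0 and a d1 library between 157 and 163. Libraries of the same day lay between 25.9 and 27.1 apart on d1 and between 23.7 and 24.4 on d4. The d0 libraries lay further from each other, between 44.8 and 66. The 3 d4 libraries did not approach d0 again: their distance from the d0 libraries was between 164 and 166, and their distance from the d8 libraries between 61.4 and 62.6. On the first principal component, with 64.6% of the variance, the libraries were ordered by day, from -126.6 to -124.9 on d0, -20.2 to -19.4 on d1, 24.7 to 25.5 on d4 and 63.8 to 65.4 on d12. On the second component, with 23% of the variance, d1 stood apart between 77 and 78.6, and the d4 libraries at 6 to 6.5 lay between d1 and the d0 libraries at -37 to -33.1.

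Although the counts of called rows were balanced, the large changes were mostly increases. Among the called rows, 1291 were at least 2-fold higher and 553 at least 2-fold lower. At 4-fold or more there were 418 higher and 97 lower rows, and at 8-fold or more 160 and 34. The median log2 fold change (log2FC) was 0.71 among higher rows and -0.54 among lower rows. Among all rows tested, called or not, 113 had at most 3 counts in each d1 library and at least 10 in each d4 library. The opposite held for 37 rows. Only 2 called rows had no read in any d1 library and 1 had none in any d4 library, so that these rows cannot move the medians.

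**Figure D1:**
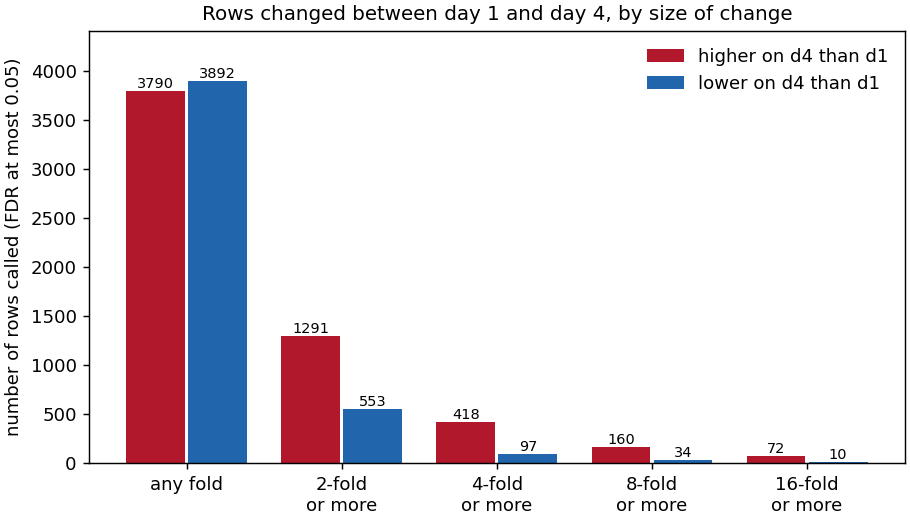
Number of rows called between d1 and d4 (vertical axis, rows) by the least size of the change (horizontal axis), with rows higher on d4 in red and rows lower on d4 in blue. The 2 directions are nearly equal without a fold threshold, with 3790 and 3892 rows, and separate at 4-fold or more, with 418 and 97 rows.

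Increases of 4-fold or more outnumbered decreases in each quartile of mean CPM, though least in the lowest. The mean CPM was taken over all 15 IVT libraries, so levels on d0, d8 and d12 also placed a row in its quartile. The level threshold used d1 and d4 only. In the quartile of tested rows with the lowest mean CPM (0.42 to 9.61), of which 1056 rows were above the level threshold, 313 rows were called higher and 297 lower, and 59 and 37 at 4-fold or more. In the second quartile (9.61 to 36.4 CPM), 36.1% of rows were higher and 27.9% lower, and 191 were at least 4-fold higher against 31 at least 4-fold lower. In the highest quartile (92.5 to 2550 CPM), 33.9% were higher and 39.1% lower, with 78 and 12 rows at 4-fold or more. The CPM quartiles are not corrected for gene length.

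The level distribution of whole libraries also differed between the days, although 3 libraries against 3 cannot give an exact permutation p below 0.1. The median log2(CPM + 1) over the rows tested was 5.07 ± 0.0044 on d1 and 5.15 ± 0.011 on d4 (SD, n = 3), a difference of 0.082 with all d4 libraries above all d1 libraries (two-sided exact permutation test p = 0.1, the smallest that 3 against 3 can give). The lower quartile was 2.84 ± 0.012 on d1 and 3.19 ± 0.021 on d4, whereas the upper quartile was 6.50 ± 0.0065 on d1 and 6.46 ± 0.00055 on d4 (exact permutation p = 0.1 for each). The filter used all 15 IVT libraries, so rows counted on later days but not on d1 were among the rows tested. Of the rows tested, 127 had no read in any d1 library and 48 had none in any d4 library. The difference in the lower quartile can therefore depend in part on the filter. The 10 highest rows held 1.72% ± 0.053 of the counts on d1 and 2.03% ± 0.035 on d4 (exact permutation p = 0.1), so that the d4 libraries had a higher lower quartile and a larger share in a few rows at the same time. As a description of the called rows, which were chosen by this same contrast, the rows called higher held 25% of the counts on d1 and 39.9% on d4, and the rows called lower 46% and 31.5%.

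To describe recovery and continuation, each row was placed by its call in the first step (d1 against d0) and in the second step (d4 against d1). Both steps use the same 3 d1 libraries, so an error in a d1 level enters them with opposite signs, and the counts are given as a description. Of the 4733 rows induced by d1, 2023 (42.7%) fell from d1 to d4, 1074 (22.7%) rose further and 1636 (34.6%) were not called. Of the 4469 rows repressed by d1, 1836 (41.1%) rose from d1 to d4, 1103 (24.7%) fell further and 1530 (34.2%) were not called. In the second step 4725 of the induced rows were above the level threshold, and of these 22.7% were higher and 42.8% lower. Of the repressed rows 4007 were above it, and of these 45.8% were higher and 27.5% lower. The shares of all rows above the threshold were 33.8% and 34.7%. In each direction, then, more rows turned back than went on. Of the 4453 rows not called in the first step, 880 (19.8%) were higher on d4 and 766 (17.2%) lower. Only 2474 of those rows were above the level threshold in the second step, and of these 35.6% were higher and 31% lower, shares near those of all rows above the threshold. Among the rows called only in the second step, 160 had passed the FDR in the first step but were under its level threshold.

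**Figure D2:**
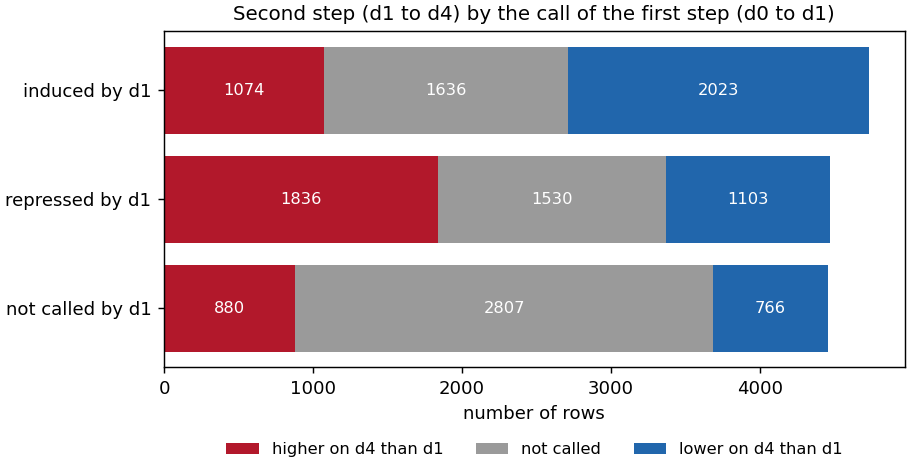
Number of rows (horizontal axis) by their call in the first step, d1 against d0, with each bar divided by the call in the second step, d4 against d1 (red higher, grey not called, blue lower). Among induced rows the blue part (2023) exceeds the red part (1074), and among repressed rows the red part (1836) exceeds the blue part (1103).

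These counts depend on the scaling of the d0 libraries. When libraries were scaled by their totals and not by TMM factors, the median log2FC over all rows moved from 0 to 0.31 between d0 and d1, and from 0.0063 to -0.0076 between d1 and d4. The first step then had 6144 induced and 3315 repressed rows in place of 4733 and 4469, while the second step had 3717 higher and 3995 lower rows. The order within each direction was the same: 2664 induced rows turned back and 1388 went on, and 1472 repressed rows turned back and 741 went on.

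The largest group of rows that turned back stopped short of d0. Of the 2023 induced rows that fell again, 1090 (53.9%) were still called above d0 on d4, 703 (34.8%) were not called against d0 and 230 (11.4%) were called below it. Of the 1836 repressed rows that rose again, 1000 (54.5%) were still below d0, 491 (26.7%) were not called and 345 (18.8%) were above it. For comparison, 36.2% of all rows tested were called higher on d4 than on d0 and 33% lower. Not being called does not show that a row was back at its d0 level. The 95% interval of the d4 to d0 log2FC lay within 2-fold for 636 of the 703 and for 486 of the 491 rows. This limit is close to the median first change of the 2 classes, 0.93 and -1.19 in log2. A row could therefore keep much of its first change and still lie within it. With library totals, 1593 of the induced rows that turned back were still above d0, 800 were not called and 271 were below, and of the repressed rows 715 were still below, 394 not called and 363 above.

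The part of the first change that was still present on d4 was computed for rows called and changed at least 2-fold by d1, as the d4 to d0 difference in percent of the d1 to d0 difference of mean log2CPM. For 2072 induced rows the median was 88.2% (quartiles 65.5% and 110%), and for 2296 repressed rows it was 81.5% (quartiles 45.8% and 116%). Under library totals the medians were 89.6% and 78.7%. Less than 50% of the change, but not past d0, was kept by 11.9% of induced and 20% of repressed rows, and 2.36% and 7.36% had passed d0 to the other side. More than the whole first change was present in 35.4% of both. Of the 6 ranges of first change (2 to 4-fold, 4 to 8-fold and more, in each direction), rows repressed between 4-fold and 8-fold kept the least, with a median of 73.8% in 508 rows, and rows induced 8-fold or more kept the most, with a median of 96.4% in 179 rows. In the median row, most of the first day's change was thus still in place on d4. Both differences use the same d0 means, so an error in a d0 level enters both with the same sign. The d0 libraries had the widest spread and the rows were chosen by the size of the first change, so these shares are given as a description.

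The level of each class was followed over all 15 libraries. Among rows induced and then lower, the median log2CPM was between 5.01 and 5.14 in the d0 libraries, 6.14 in each d1 library and between 5.54 and 5.56 on d4, and it was between 5.39 and 5.43 on d12. Among rows repressed and then higher, it was between 6.28 and 6.42 on d0, between 4.90 and 4.95 on d1, between 5.88 and 5.92 on d4 and between 5.92 and 5.95 on d12. Both medians stopped short of d0 on d4, and on d12 they were still on the d4 side. The classes that went on were at 5.89 (induced) and 6.04 (repressed) on d4, as means over 3 libraries of the median log2CPM, after 5.32 and 6.59 on d1, and between 5.98 and 6.02 and between 6.02 and 6.03 in the d12 libraries. These levels chose the classes up to d4. The d8 and d12 levels did not enter the contrasts, but their libraries shared the filter and the estimate of the spread; with only d0, d1 and d4 in the fit, the induced rows that fell numbered 1669 and the repressed rows that rose 1691. In each of the 6 classes, between 84% and 88.9% of rows had a mean log2CPM on d8 nearer to d4 than to d1, and between 77.7% and 83.2% on d12. This share was not computed over all rows tested, so it is not shown to be particular to the classes. Whole d12 libraries were also nearer to d4 (Euclidean distance 82.2 to 83.4) than to d1 (139 to 141).

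**Figure D3:**
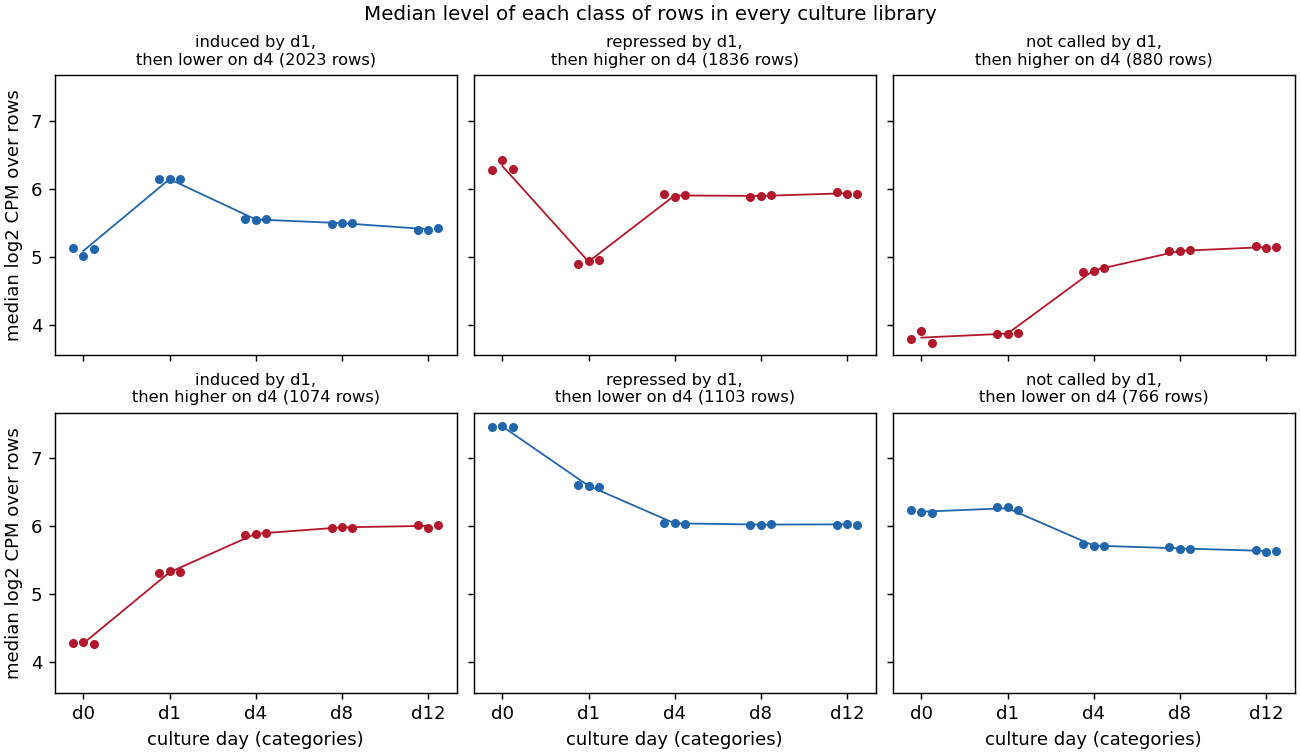
Median log2CPM over the rows of a class (vertical axis) in each IVT library (points, 3 per day; the line joins the means of the 3) for the 6 classes, against culture day drawn as evenly spaced categories. The 2 classes that turned back peak or dip on d1 and stay between d0 and d1 afterwards, for example at 6.14 on d1 and between 5.54 and 5.56 on d4 for rows induced and then lower.

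Individual rows show how different these courses were. The rows named here are, in each class, the 3 with the largest d4 to d1 log2FC among called rows with an average log2CPM above 5 and no overlap between d1 and d4 libraries. Since they were chosen by this contrast, their log2FC and FDR between d1 and d4 describe the choice. CPM values are not per gene length and are compared only between libraries.

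Among the rows induced by d1 and then lower, row 440 was at 62.8, 70.2 and 66.7 CPM on d1 and at 4.81, 4.74 and 5.49 on d4, a log2FC of -3.73 ± 0.18 (standard error (SE), FDR 1.1e-11). Its d0 level was 5.71 ± 3.4 CPM (SD, n = 3), and d4 was not called against d0 (log2FC -0.08 ± 0.28, FDR 0.81), so its level on d1 was a transient peak. Row 4696 was at 102, 96.6 and 86.8 CPM on d1 and at 9.49, 6.83 and 9.43 on d4 (log2FC -3.46 ± 0.14, FDR 1.5e-12). It stayed above its d0 level of 3.19 ± 1.5 CPM, by 1.43 ± 0.26 in log2 (FDR 7.3e-05). Row 1828 was at 94.7, 79.8 and 64.3 CPM on d1 and at 9.62, 8.64 and 8.58 on d4 (log2FC -3.15 ± 0.25, FDR 8.1e-09). This row had been called induced by only 0.64 ± 0.21 in log2 (FDR 0.011), with d0 libraries at 71.4, 30.9 and 51.3 CPM that overlap d1, and on d4 it was below d0 by 2.51 in log2 (log2FC -2.51 ± 0.27, FDR 1.5e-07). On d12 the means of these rows were 3.57, 4.52 and 2.37 CPM.

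The 3 named rows that went on rising had a larger second than first step, which their choice by the second step favoured. In the whole class the order was the other way, with a median log2FC of 0.88 in the first step and 0.49 in the second. Row 22645 was at 8.75, 15.7 and 14.6 CPM on d1 and at 295, 287 and 289 on d4 (log2FC 4.47 ± 0.12, FDR 8e-15), from 0.988 ± 0.35 CPM on d0 (first step 3.77 ± 0.31). Row 16321 was at 19.5, 22.3 and 23.7 CPM on d1 and at 440, 469 and 459 on d4 (log2FC 4.38 ± 0.092, FDR 5.4e-16), whereas its first step had been only 0.41 ± 0.12 in log2 (FDR 0.007). Row 12190 was at 12.6, 14.2 and 16.8 CPM on d1 and at 180, 186 and 189 on d4 (log2FC 3.67 ± 0.12, FDR 1.4e-13), after a first step of 1.67 ± 0.22. Rows 22645 and 16321 had means of 814 ± 30 and 746 ± 15 CPM on d12, after 290 ± 4.0 and 456 ± 15 on d4, and row 12190 had 206 ± 7.9 CPM after 185 ± 4.6 on d4 (SD, n = 3).

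Among the repressed rows that rose again, the 3 named ones passed their d0 level. Their choice by the largest rise favoured high d4 levels, so their values against d0 also describe the choice. In the whole class of 1836 rows, 345 were called above d0 and 1000 were still below it. Row 17236 went from 45.5, 43.5 and 63.6 CPM on d0 to 1.00, 2.42 and 1.59 on d1 and to 111, 123 and 113 on d4 (d4 to d1 log2FC 6.09 ± 0.18, FDR 3.2e-14). Against d0 it was higher on d4 by 1.21 ± 0.12 in log2 (FDR 4e-08). Row 12174 went from 122, 107 and 127 CPM on d0 to 9.32, 13.8 and 10.5 on d1 and to 252, 267 and 254 on d4 (log2FC 4.51 ± 0.10, FDR 1.5e-15), and on d4 was above d0 by 1.13 ± 0.082 in log2 (FDR 1.1e-09). Both had thus fallen steeply by d1 and more than recovered by d4. Row 22532 had fallen less in the first step, to 3.44, 3.62 and 5.06 CPM, and was at 222, 235 and 229 CPM on d4 (log2FC 5.82 ± 0.11, FDR 9.9e-17), above its d0 mean of 7.70 ± 0.60 CPM by 4.90 ± 0.11 in log2 (FDR 2.3e-16).

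Among the rows that kept falling, row 7147 went from a mean of 865 ± 140 CPM on d0 to 553, 536 and 536 on d1 and to 48.5, 42.2 and 48.4 on d4 (log2FC -3.55 ± 0.11, FDR 4.4e-14), and was at 2.25 ± 0.20 CPM on d12. Row 9856 went from 583 ± 25 CPM on d0 to 62.1, 61.5 and 66.2 on d1 and to 3.77, 2.51 and 3.80 on d4 (log2FC -4.22 ± 0.13, FDR 3.9e-14), and was at 0.438 ± 0.14 CPM on d12. Most of the fall of row 7147 came after d1, whereas row 9856 fell in both steps. Row 17808 had 515, 424 and 430 counts on d1 and 0, 1 and 2 counts on d4, so its d1 level was 470 times its d4 level with a 95% counting interval from 160 to 2280 (exact binomial, libraries summed). Without d4 replicate C, which held 2 of the 3 counts, the fitted log2FC moved from -8.69 to -9.54. Its d0 libraries were at 147, 80.1 and 177 CPM, and its d8 and d12 libraries held at most 2 counts each.

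Among the rows higher on d4 without a called first step, the 3 named ones were nearly absent on d1, whereas the mean over d1 libraries of the class median was 3.87 in log2CPM. Row 12609 had 1, 0 and 0 counts on d1 and 496, 475 and 479 on d4, a ratio of 1410 with a 95% counting interval from 252 to 55700. This ratio rests on the single read of d1 replicate A, without which the fitted log2FC moved from 9.97 to 11.77. Row 4160 had 3 counts in each d1 library, which is the floor, and 589, 510 and 490 on d4, a ratio of 172 (90.1 to 376). Row 23724 was at 1.15, 0.94 and 1.01 CPM on d1 and at 90.8, 90.9 and 89.1 on d4 (log2FC 6.43 ± 0.14, FDR 6.9e-16). On d0 they were at 1.02 ± 0.71, 1.26 ± 0.41 and 6.48 ± 2.1 CPM and had passed the FDR of the first step as lower on d1 (9.3e-05, 0.018 and 1.5e-08), so they count as not called only through the level threshold. On d8 their means were 148, 365 and 333 CPM.

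Among the rows that fell without a called first step, row 18548 was at 56.7, 62.9 and 70.6 CPM on d1 and at 6.50, 5.16 and 5.49 on d4 (log2FC -3.46 ± 0.21, FDR 2.5e-10). Row 17733 was at 87.7, 101 and 104 CPM on d1 and at 28.5, 26.8 and 26.5 on d4 (log2FC -1.84 ± 0.17, FDR 8.7e-08), and row 13055 at 63.7, 75.3 and 78.4 CPM on d1 and at 20.8, 22.2 and 19.7 on d4 (log2FC -1.79 ± 0.16, FDR 4.3e-08). Their d0 means of 57.7 ± 21, 76.3 ± 27 and 77.9 ± 22 CPM had the wide spread of the d0 libraries, which limits what could be called in the first step.

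**Figure D4:**
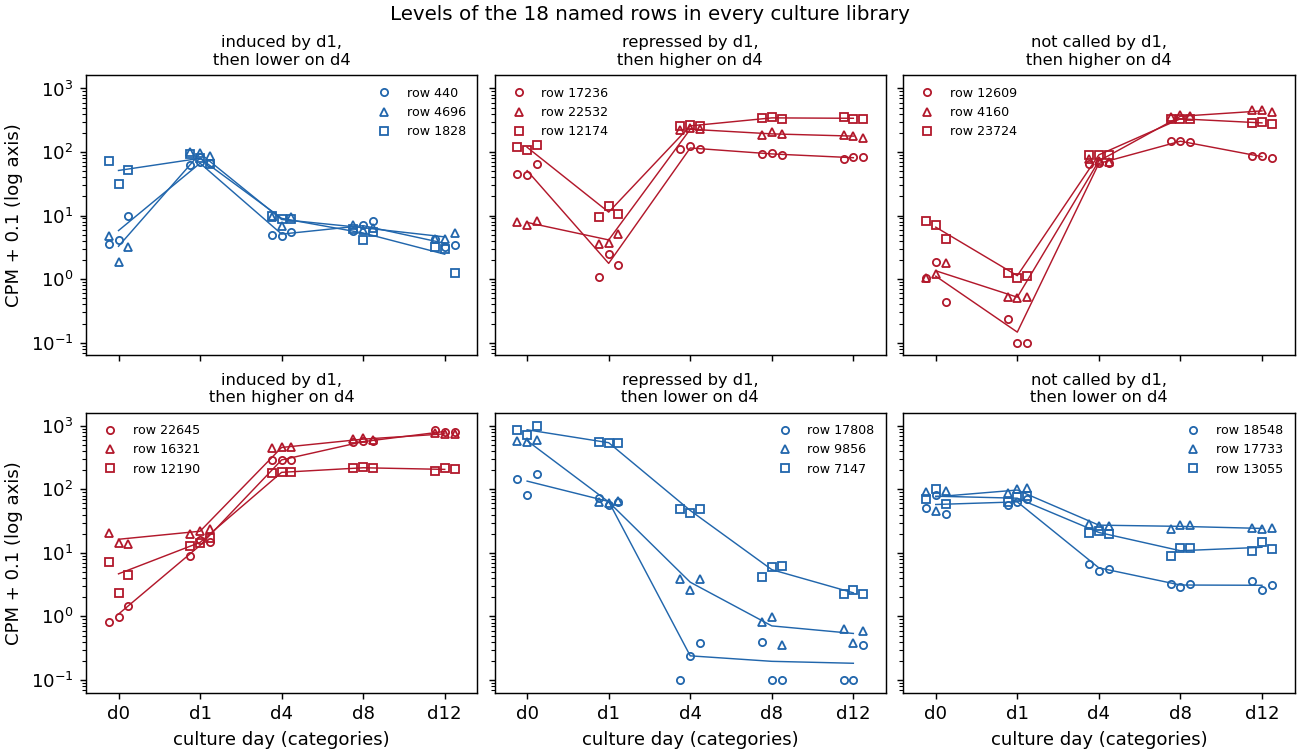
CPM plus 0.1 (vertical axis, log scale) of the 18 rows named by class in each of the 15 IVT libraries (points, 3 per day), against culture day drawn as evenly spaced categories; lines join the means of a row and points at 0.1 are libraries without a read. Row 17236 dips to between 1.00 and 2.42 CPM on d1 and is above its d0 level on d4, whereas row 440 peaks on d1 and returns.

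The most abundant called rows were also examined. Row 7597, the called higher row with the highest CPM, was at 1252, 1426 and 1506 CPM on d1 and at 2874, 2992 and 2952 on d4 (log2FC 1.07 ± 0.070, FDR 7.1e-10). It had fallen in the first step (log2FC -1.34 ± 0.070, FDR 1.3e-11), and on d4 was still below d0 by a small amount (log2FC -0.27 ± 0.069, FDR 0.0019). Row 9354, the called lower row with the highest CPM, was at 2075, 2055 and 2241 CPM on d1 and at 1816, 1899 and 1885 on d4 (log2FC -0.19 ± 0.065, FDR 0.019). This call was lost when d1 replicate C (FDR 0.095) or d4 replicate A (FDR 0.073) was left out.

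Rows that changed at least 4-fold are described as a set, again chosen by the contrast. Of the 418 rows at least 4-fold higher, 224 had been repressed by d1, 35 induced and 159 not called. Of all rows tested, 32.7% had been repressed by d1 and 34.7% induced. The choice of the rows favoured low d1 levels, and the first step used the same d1 libraries. The larger number repressed by d1 therefore describes the choice. On d4, 280 of them were called above d0, 99 below and 39 neither, and their median log2CPM was 3.33 on d0, 1.93 on d1, 4.69 on d4 and 5.30 on d12 as means over libraries. Over all rows tested, 36.2% were called higher on d4 than on d0 and 33% lower. The choice of the rows used the same d4 libraries and favoured high d4 levels, so the larger number above d0 describes the choice. Of the 97 rows at least 4-fold lower, 48 had been induced, 41 repressed and 8 not called. On d4, 10 were above d0, 59 below and 28 neither. The choice of these rows favoured low d4 and high d1 levels, so these counts describe the choice.

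Finally, the classes were looked up in HSCs from treated mice, which are independent libraries. Rows were matched by their line, since the identifiers and their order are identical in the 3 tables, and the rank correlation over all 23999 rows was 0.933 between the means of chow and d0 and 0.937 between those of vehicle and d0. In WD at 24 weeks against chow, 24% of 13510 rows were called induced and 16.6% repressed, and in CCl4 at 8 weeks against vehicle 21.8% of 13513 rows were induced and 24% repressed. Among the rows tested in culture and also in a model, the shares were 20.7% and 18% in WD and 20.7% and 25.6% in CCl4. They were 18.9% and 19.2% in WD, and 19.4% and 27.4% in CCl4, among rows above the level threshold in culture.

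The class that turned back from induction had a share induced near this background, and the class that went on had a larger share induced. Of the rows induced by d1 and then lower, 413 of 1980 (20.9%) were induced and 255 (12.9%) repressed in WD, and 366 of 1986 (18.4%) were induced and 374 (18.8%) repressed in CCl4. Of the rows induced and then higher, 378 of 1048 (36.1%) were induced and 111 (10.6%) repressed in WD, and 405 of 1062 (38.1%) and 106 (9.98%) in CCl4. Rows not called by d1 and then higher were induced in 27.2% (WD) and 31% (CCl4). No test was made of these differences between classes.

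Among repressed rows the split was less clear. Of those that rose again, 549 of 1826 (30.1%) were repressed in WD and 769 of 1832 (42%) in CCl4. Of those that fell further, 323 of 1094 (29.5%) were repressed in WD and 536 of 1098 (48.8%) in CCl4. Both classes had more repressed rows than the background in both models, whether or not they had turned back in culture. When the models were scaled by library totals, the split of the CCl4 calls moved from 2945 induced and 3246 repressed rows to 3615 and 2432, and the shares induced in CCl4 were then 24.5% for rows induced and then lower, 47.8% for rows induced and then higher and 25.9% for all rows. The shares repressed in CCl4 were then 34.7% for rows repressed and then higher, 37% for rows repressed and then lower and 19.2% for all rows.

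**Figure D5:**
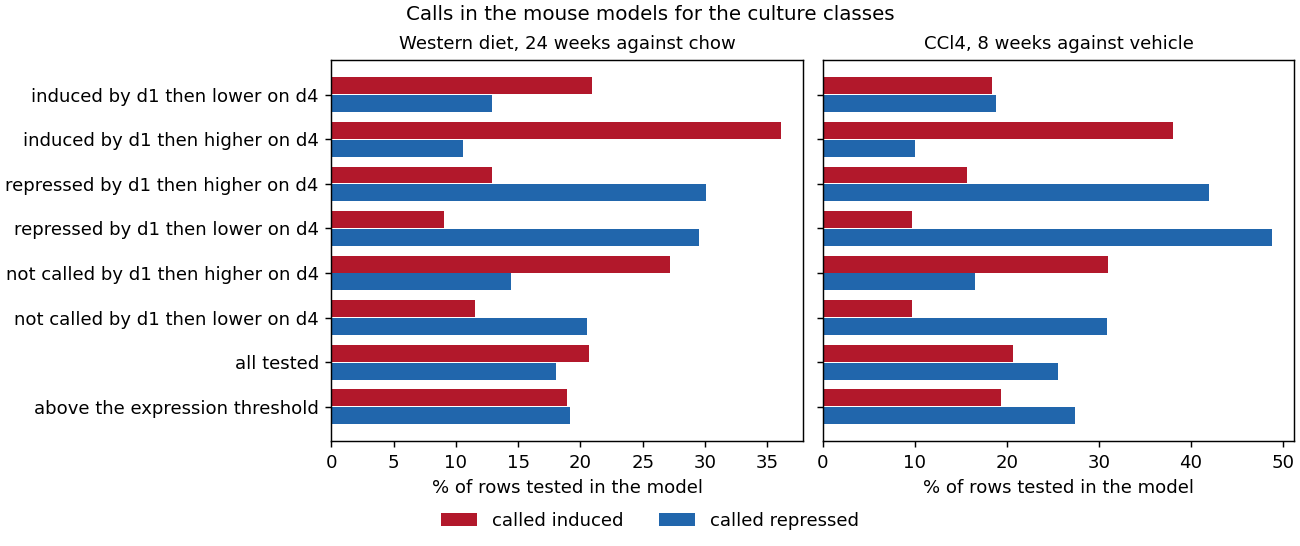
Share of rows called induced (red) or repressed (blue) in percent of the rows tested in the model (horizontal axes), in WD at 24 weeks against chow (left) and CCl4 at 8 weeks against vehicle (right), for the 6 culture classes and for 2 backgrounds. Rows induced by d1 and then higher reach 36.1% and 38.1% induced, against 20.7% of all tested rows in each model.

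The rows that rose by 4-fold or more were induced in WD in 110 of 356 cases (30.9%) and in CCl4 in 159 of 379 (42%). The rows that fell by 4-fold or more had a share induced of 28.9% in WD (22 of 76), close to that of the rows that rose, and of 19.7% in CCl4, and were repressed in 10.5% and 39.5%. Over all rows called higher on d4, 832 of 3679 (22.6%) were induced and 776 (21.1%) repressed in WD, and 950 of 3726 (25.5%) were induced and 1012 (27.2%) repressed in CCl4. Over all rows called lower, 599 of 3829 (15.6%) were induced and 733 (19.1%) repressed in WD, and 547 of 3844 (14.2%) and 1145 (29.8%) in CCl4. The direction between d1 and d4 alone thus separated the in vivo calls less than the class did, and with only the models scaled by library totals 1180 of the higher rows were induced and 789 repressed in CCl4, and 721 and 813 of the lower rows.

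Single rows did not always follow their class. Row 16321 was at a median of 4.59 CPM in vehicle and 410 in CCl4 (log2FC 6.41 ± 0.32, FDR 6e-10), but at 6.30 in chow and 15.5 in WD (log2FC 1.25 ± 0.58, FDR 0.089). Rows 22645, 12190 and 4160 were also higher in CCl4, by 6.34 ± 0.60, 5.73 ± 0.33 and 6.81 ± 0.35 in log2 (FDR 3.4e-07, 1.8e-09 and 6.6e-10). In WD, rows 22645 and 4160 were not called (log2FC 0.82 ± 0.58 and 0.65 ± 0.60, FDR 0.25 and 0.38), and row 12190 passed the FDR (log2FC 2.43 ± 0.38, FDR 9.8e-05) but was under the level threshold. Row 12609 was higher in both models, by 4.45 ± 0.50 in WD and 2.54 ± 0.33 in CCl4 (FDR 4.6e-06 and 1.2e-05). Row 17808, which disappeared in culture after d1, was higher in both as well, from a median of 2.74 to 122 CPM in WD (log2FC 5.56 ± 0.38, FDR 9.2e-08) and from 1.53 to 197 in CCl4 (log2FC 6.96 ± 0.42, FDR 2.5e-09). Its level on d0 was already 135 ± 50 CPM (SD, n = 3), although the tables were scaled separately and levels across them are only approximate. Row 9856 was lower in CCl4 (log2FC -2.71 ± 0.29, FDR 1.2e-06) and not called in WD (-1.28 ± 0.51, FDR 0.053).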

How the data were processed

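The authors aligned the reads with STAR to mm10, counted exon reads per RefSeq gene on both strands with HOMER (1 transcript per gene, at most 3 reads per position) and deposited raw counts without normalization, per the file headers. The versions are not given in the sources used here. The limit of 3 reads per position can compress the counts of abundant or short genes. The command in the header names the same source libraries in all 3 tables, so columns were assigned by their titles, and 0 columns were left unassigned. Of the listed identifiers, 23655 matched RefSeq symbols.

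Counts were analysed with edgeR 4.0.16 in R 4.3.3: filterByExpr by group, TMM factors (0.819 to 0.852 for d0 and 1.03 to 1.06 for later days), glmQLFit and glmQLFTest on all 15 IVT libraries, and Benjamini-Hochberg adjustment over all rows tested. The biological coefficient of variation was 0.0766. WD and CCl4 were fitted in the same way with all their groups. The level threshold used the log2 of the average CPM; the mean of log2CPM in its place was an alternative added after seeing the data. Means of log2CPM used a prior count of 2. The count test was tested on simulated data, drawn from the means and library sizes of these libraries with a known set of changed rows. That set was small and all other rows were constant over the days. The simulation therefore could not check the scaling where most rows change, as they did here. Python 3.11.15 was used for tables and matplotlib 3.10.9 for figures.

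Replicates of d1 and of d4 differed by more than sampling noise, with a chi-square per row between 1.14 and 2.04, and were kept as 3 samples each. The named rows were the 3 with the largest log2FC in each class (called, average log2CPM above 5, no overlap) and the most abundant called higher and lower row. The members, classes and lists were chosen with earlier results of these data known. Alternatives were the edgeR exact test, DESeq2 1.42.0, library totals, DESeq2 size factors, no filter, no level threshold, a 2-fold threshold, only the groups compared, a replicate block, other pseudocounts and leaving out each library.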

Additional observations from a re-analysis of the deposited data

How the results depend on the processing

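The cultures had 3 libraries a day, which limits the precision of each level, and no permutation test of a single value could pass 0.05. Of 294 recomputed counts and levels, 274 stayed within 1.5 times the reported count or within the replicate spread, and 20 moved. Of 200 recomputed log2FC of named rows none reversed, and the 2 that lost their call were those of row 9354. DESeq2 called 3747 rows higher and 3932 lower on d4, the exact test 3871 and 3979. The order of the 2 directions turned without the filter on low counts (3763 and 3716), without the level threshold (4607 and 4255), with the 2-fold threshold below, and without d1 replicate B (3568 and 3560) or C (3612 and 3576). Among the higher rows, the order of induced and repressed calls (832 and 776 in WD, 950 and 1012 in CCl4) turned in WD with the replicate block (833 and 898) and in CCl4 with library totals in both fits (1146 and 779) and with the 2-fold threshold; among the lower rows it turned in WD with the 2-fold threshold. With the replicate letters as a replicate block the counts were 3748 and 3862; the deviations of same-lettered d1 and d4 libraries correlated at only 0.0355, 0.0121 and 0.0581, so the letters are not treated as pairs. Leaving out 1 library gave 3475 to 3612 higher and 3522 to 3583 lower rows, and 396 to 455 and 82 to 106 rows at 4-fold or more. Without the level threshold, 873 rows were at least 4-fold higher and 237 lower. With a 2-fold threshold, 1291 rows were higher and 553 lower. The classes then held 190 (induced then lower), 102 (induced then higher), 580 (repressed then higher) and 110 rows (repressed then lower). Those not called by d1 held 609 (then higher) and 253 rows (then lower), so that the largest class was no longer one that had turned back. With that threshold also in vivo, 234 of the higher rows were induced and 182 repressed in WD and 306 and 177 in CCl4, and of the lower rows 78 and 36 in WD and 78 and 85 in CCl4. The difference of the median level was 0.0674 with library totals, 0.0739 with a pseudocount of 5 and 0.242 without the filter on low counts.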
